A study of Mus musculus with 6 samples.

Results

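The insulin signalling genes described here are 8: the insulin receptor gene Insr, the receptor substrates Irs1 and Irs2, the phosphoinositide 3-kinase (PI3K) subunit gene Pik3r1, the kinases Akt1 and Akt2, and the transcription factors Foxo1 and Foxo3. They were chosen by name out of 19938 genes, and each was read by its probe set with exactly 1 gene symbol and the highest mean over the arrays. All 8 were measured. The cells were stromal cells of bone marrow, an adherent mixture that includes precursors of osteoblasts and adipocytes, from C57BL/6 mice aged 6 months. Their labels give the genotype as knockout of miR-188, a microRNA gene (KO), or as wild type (WT), with 3 biological replicates of each on 1 Affymetrix array per replicate. Both genotypes were kept in one adipogenic medium with 10% fetal calf serum, 5 µg/ml insulin, 1 µM dexamethasone, a glucocorticoid, and 0.5 mM 3-isobutyl-1-methylxanthine, a phosphodiesterase inhibitor. No insulin-free culture is among the 6 samples, so the comparison is between genotypes under insulin and not of the response to insulin.

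Insulin binding activates the receptor's tyrosine kinase, which phosphorylates the IRS adaptors. These recruit PI3K, whose lipid product brings AKT to the membrane, where it is activated. AKT phosphorylates the FOXO factors, which then leave the nucleus and stop driving their targets, and in preadipocytes this pathway is known to promote adipogenesis, with FOXO1 known as a brake on it. Much of this control acts on proteins by phosphorylation, and arrays measure transcript levels only.

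The deletion that separates the genotypes concerns the microRNA whose mature arms are printed next from RefSeq (GRCm38.p6). The arms are encoded on the minus strand of chromosome X, miR-188-5p at chrX:7248031-7248051 and miR-188-3p at chrX:7247992-7248012. Capitals mark the seed, bases 2 to 8, through which a microRNA pairs with its target transcripts.
miR-188-5p: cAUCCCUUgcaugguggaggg
miR-188-3p: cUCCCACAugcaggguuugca
The seeds of the arms differ, and target sites in the transcripts of the 8 genes were not analysed here.

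Promoter windows, each from 250 bases before to 50 bases after a gene's start, were found in the RefSeq table for 7 of the 8 genes, in 12 entries. Insr had no entry. They were searched on both strands for GTAAACA, a binding element of FOXO factors, and for CAAAACA, the insulin response sequence through which FOXO factors act on liver genes, a motif of the same length, so that no stretch matches both in full. A match to either was found in 3 of the 12 entries, and in 9.63% of all 300-base promoter entries. The matching stretches are shown because Irs2 is a known FOXO target in liver, with the match in capitals and 20 bases on each side. The windows lie at chr1:82291445-82291570 (Irs1), chr8:11008940-11008986 (Irs2) and chr12:112675019-112675065 (Akt1), all on the minus strand of GRCm38.p6.
Irs1: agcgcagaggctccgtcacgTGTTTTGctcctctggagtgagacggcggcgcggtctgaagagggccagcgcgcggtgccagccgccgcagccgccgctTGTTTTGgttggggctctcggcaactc
Irs2: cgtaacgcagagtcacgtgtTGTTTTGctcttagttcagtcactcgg
Akt1: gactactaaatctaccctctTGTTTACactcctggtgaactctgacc
Irs1 and Irs2 carried the insulin response sequence, read here as TGTTTTG, and Akt1, at 1 of its 2 annotated starts, the FOXO element, read as TGTTTAC. The promoter of Foxo3, the one member that passed the test below, lies at chr10:42276646-42276945 on the minus strand and held neither motif.
Foxo3: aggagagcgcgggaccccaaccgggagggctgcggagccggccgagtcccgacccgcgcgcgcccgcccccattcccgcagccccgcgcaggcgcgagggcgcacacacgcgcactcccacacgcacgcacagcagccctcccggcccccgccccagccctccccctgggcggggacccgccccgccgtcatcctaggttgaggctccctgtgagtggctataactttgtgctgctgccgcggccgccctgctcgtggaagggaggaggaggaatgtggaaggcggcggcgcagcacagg
G and C made up 75.0% of it. These matches describe letters in short windows and are not measured binding sites.

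All values below are log2 expression from the authors' RMA processing, so a difference of 1 is a doubling, and probe sets of different genes are not compared by level. Arrays have no read depth, and the small number of arrays limits the precision. The 8 genes lay 2.62 to 4.18 above a background of 6.83, a value that 95% of the means of 1027 olfactory receptor genes stayed under. KO was set against WT by limma over all 19938 genes, with Benjamini-Hochberg adjustment and a call at an adjusted p under 0.05. Of all genes 7.31% were called, 3.34% as higher and 3.97% as lower in KO. These are 666 higher and 791 lower genes, a split that turned to 862 and 639 after a further quantile normalization and to 859 and 667 after cyclic loess. The share was 10.7% among the 13090 genes above background, the level class of all 8 genes. Of the 8 genes 1 was called, Foxo3, as higher in KO. Whether the replicates of a genotype came from separate mice is not stated, and the p-values thus cover only how these cultures varied. The deposited values do not test the genotype labels, on which every direction rests.

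The cells carried some adipocyte marker transcripts. Of 10 measured adipocyte markers 7 lay above background, with Adipoq, Lep and Cd36 below it. Several of the 7 were close to the background of 6.83. Retn averaged 6.88 in KO and 6.86 in WT, Cidec 7.18 and 7.24, and Plin1 7.53 and 7.55. Pparg (-1.27, adjusted p = 0.00113), Fabp4 (-0.33, adjusted p = 0.0186) and Lpl (-0.42, adjusted p = 0.00964) fell in KO and Lipe rose by 0.19 (adjusted p = 0.0269, limma), and the summed linear level of the list was 2832 to 2907 in KO arrays and 3567 to 3699 in WT arrays. Of 11 stromal markers 10 lay above background, with 2 higher and 4 lower in KO and a summed level of 15239 to 15781 in KO arrays, against 17114 to 17390 in WT arrays. Col1a1 and Col1a2, which fell by 0.28 and 0.3, weighed most in that sum, while Pdgfra and Pdgfrb rose by 0.26 and 0.14. Of 10 macrophage markers 2 lay above background, Cd68 and C1qa, with Ptprc, Adgre1, Csf1r and Itgam below it. Cd68 fell by 0.19 (adjusted p = 0.0153, limma), while 7 of the 10 differences were positive. The list summed to 2500 to 2524 in KO and 2738 to 2781 in WT, a sum made up mostly by Cd68. In WT, Cd68 averaged 11.04 and C1qa 6.9. Of 6 endothelial markers 3 lay above background, with Pecam1 and Tek below it; Kdr fell by 0.29 (adjusted p = 0.0425, limma), and the list summed to 542 to 572 in KO and 573 to 591 in WT. No lymphocyte (6 measured) or erythroid (2 measured) marker was called. Of the markers named, the calls of Pparg and Col1a2 held without any 1 array. Those of Lpl, Cd68, Fabp4, Lipe, Kdr, Col1a1 and Pdgfra were lost in 2 to 5 of the 6 such fits, and that of Pdgfrb in all 6 (adjusted p = 0.051 to 0.177). In cultures of mixed cells, fewer cells of a type and less RNA per cell cannot be told apart. The part of these shifts in the differences given next was not tested.

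**Figure D1:**
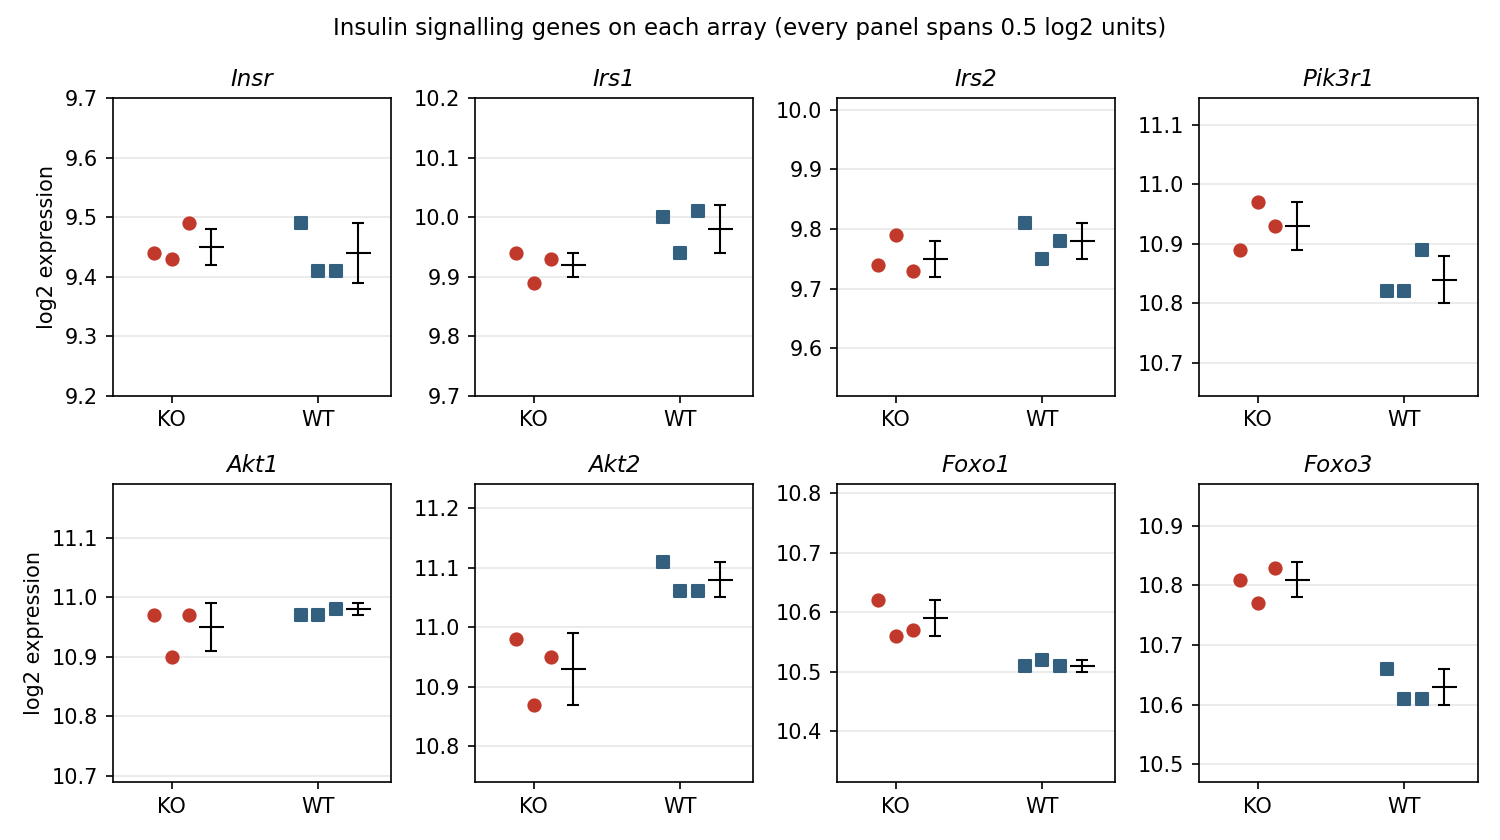
Log2 expression (y axis) of the 8 genes on each array, 3 KO arrays (red circles) left of 3 WT arrays (blue squares) in each panel. Black bars give the mean ± SD, and every panel spans the same range of 0.5 log2 units. The KO values of Foxo3 (10.77 to 10.83) lie above its WT values (10.61 to 10.66), while those of Insr and Irs2 interleave.

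At the head of the pathway, the receptor and its adaptors did not pass the test. Insr had 9.44, 9.43 and 9.49 in KO, against 9.49, 9.41 and 9.41 in WT. The groups overlapped, and the difference of 0.02 (SE 0.04, adjusted p = 0.868, limma) had a 95% interval of -0.075 to 0.106. A second Insr probe set differed by 0.04 (adjusted p = 0.563). Irs1, the adaptor best known in fat and muscle, had 9.94, 9.89 and 9.93 in KO, against 10.0, 9.94 and 10.01 in WT. The highest KO value equals the lowest WT value, so the groups touch. The difference was -0.06 (SE 0.04, adjusted p = 0.378, limma), with an interval of -0.149 to 0.019. A second Irs1 probe set lay below background in both genotypes and adds no measurement. Irs2, the adaptor best known in liver and in the insulin-producing beta cell, had 9.74, 9.79 and 9.73 in KO, against 9.81, 9.75 and 9.78 in WT. These interleaved, with a difference of -0.03 (SE 0.04, adjusted p = 0.727, limma) and an interval of -0.111 to 0.056. On the probe sets used, the intervals of Insr and Irs2 reach no further than 0.111 in size in either direction. That of the second Insr probe set ran from -0.041 to 0.13.

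Pik3r1 encodes the regulatory subunits p85alpha, p55alpha and p50alpha, which hold the catalytic subunit at the activated adaptors. It had 10.89, 10.97 and 10.93 in KO, against 10.82, 10.82 and 10.89 in WT. The lowest KO array fell just under the highest WT array. The difference was 0.09 (SE 0.04, adjusted p = 0.280, limma), and its interval of -0.006 to 0.178 reached just below 0.

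The AKT kinases follow PI3K. Akt1, the broadly expressed form, had 10.97, 10.90 and 10.97 in KO, against 10.97, 10.97 and 10.98 in WT. The groups are separated by a gap of 0.0016, with KO below, and the difference was -0.03 (SE 0.03, adjusted p = 0.692, limma). Akt2, the form most tied to insulin-stimulated glucose uptake in muscle and fat, had 10.98, 10.87 and 10.95 in KO, against 11.11, 11.06 and 11.06 in WT. All KO arrays lay below all WT arrays. The difference was -0.14 (SE 0.04), with an interval of -0.241 to -0.048 before adjustment, and it missed the threshold (adjusted p = 0.0910, limma). WT replicates 2 and 3 have equal Akt2 values on this probe set, so the WT SD of 0.03 is no full measure of precision. A second Akt2 probe set had 10.50, 10.47 and 10.44 in KO, against 10.66, 10.58 and 10.62 in WT. It was also lower on every KO array, by -0.15 (SE 0.04, adjusted p = 0.0576 over all probe sets with 1 symbol, limma). Akt2 passed when genes below background were left out (adjusted p = 0.0445), with array weights (adjusted p = 0.0325) and with a mean-variance trend (adjusted p = 0.0327). Its adjusted p was 0.0325 to 0.230 over all alternatives.

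**Figure D2:**
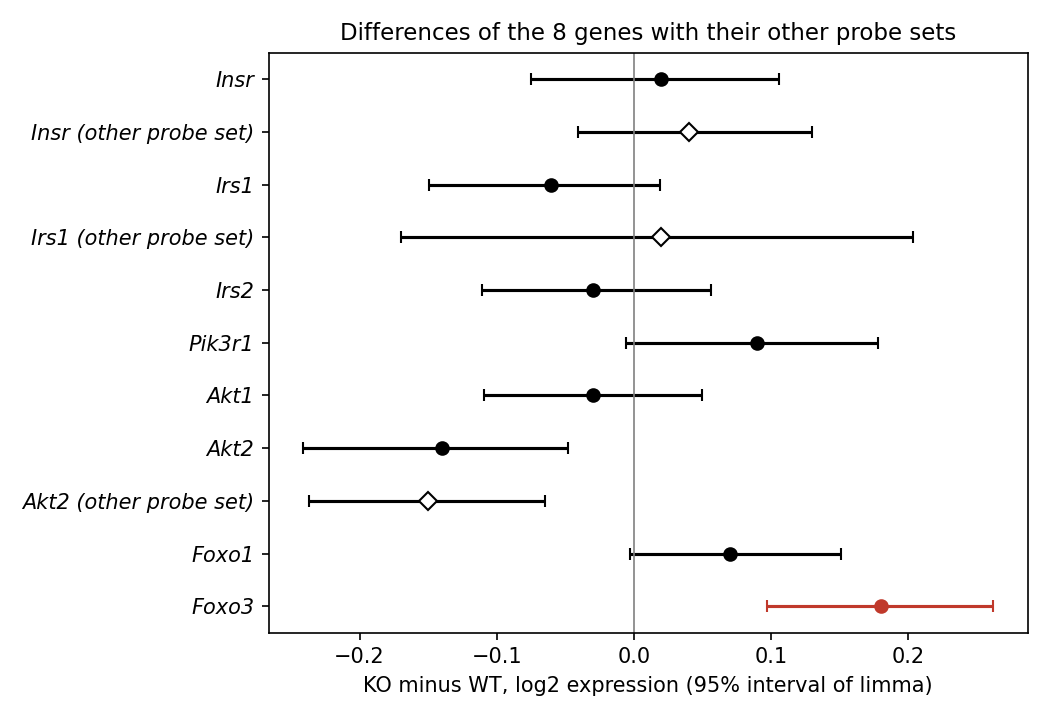
KO minus WT on the log2 scale (x axis) of the 8 genes, filled circles, and of their other probe sets with 1 symbol, open diamonds. Bars are limma's 95% intervals before adjustment, and red marks the gene with an adjusted p under 0.05. Foxo3 lies at 0.18, both Akt2 probe sets at -0.14 and -0.15, and the intervals of the other genes include 0.

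The FOXO factors stand at the pathway's end. Foxo3 had 10.81, 10.77 and 10.83 in KO, against 10.66, 10.61 and 10.61 in WT. Every KO array lay above every WT array, by a gap of at least 0.11. Foxo3 rose by 0.18 (SE 0.03, adjusted p = 0.0286, limma), which is 1.133-fold, with an interval of 0.097 to 0.262. Of the 1457 called genes it ranked 972 by p. WT replicates 2 and 3 have equal Foxo3 values, as RMA's median polish can give, so the WT SD of 0.03 is no full measure of precision. The rise was 0.167 to 0.197 when 1 array was left out, and the call was lost in 5 of the 6 such fits. Its adjusted p was 0.0763 without KO replicate 1, 0.0929 without KO replicate 3, 0.0575 without WT replicate 1, 0.0771 without WT replicate 2 and 0.131 without WT replicate 3. Without KO replicate 2 it was 0.0498. The exact permutation test over the 6 arrays gave p = 0.1, the smallest that 3 against 3 allows.

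Foxo1, the FOXO factor with the best known part in adipogenesis, had 10.62, 10.56 and 10.57 in KO, against 10.51, 10.52 and 10.51 in WT. It was higher on every KO array, by a gap of 0.0412. The difference of 0.07 (SE 0.03, adjusted p = 0.260, limma) had an interval of -0.003 to 0.151 and did not pass the test. The other FOXO genes differed by 0.03 (Foxo4, adjusted p = 0.660) and 0.07 (Foxo6, adjusted p = 0.569), both with overlapping groups. KO and WT did not overlap for 4 of the 8 genes (Akt1, Akt2, Foxo1 and Foxo3), against 24.9% of all genes. Among the 109 other pathway genes described below, 55 did not overlap either. The 24.9% takes in genes below background, and the share among genes above it was not counted.

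Paralogs were also compared within each array, which removes any shift shared by an array. Foxo3 minus Foxo1 was 0.19, 0.21 and 0.26 in KO, against 0.15, 0.09 and 0.10 in WT. The difference between genotypes was 0.11 (exact permutation p = 0.1, adjusted over the 3 pairs 0.15), in the same direction on 3 of 3 KO arrays. Akt1 minus Akt2 was -0.01, 0.04 and 0.02 in KO, against -0.14, -0.09 and -0.08 in WT. That difference was also 0.11 (exact permutation p = 0.1, adjusted 0.15). Irs1 minus Irs2 overlapped between the genotypes and differed by -0.04 (exact permutation p = 0.6, adjusted 0.6). With 3 arrays a side this test cannot go below 0.1, so unequal changes of paralogs did not pass a threshold of 0.05.

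**Figure D3:**
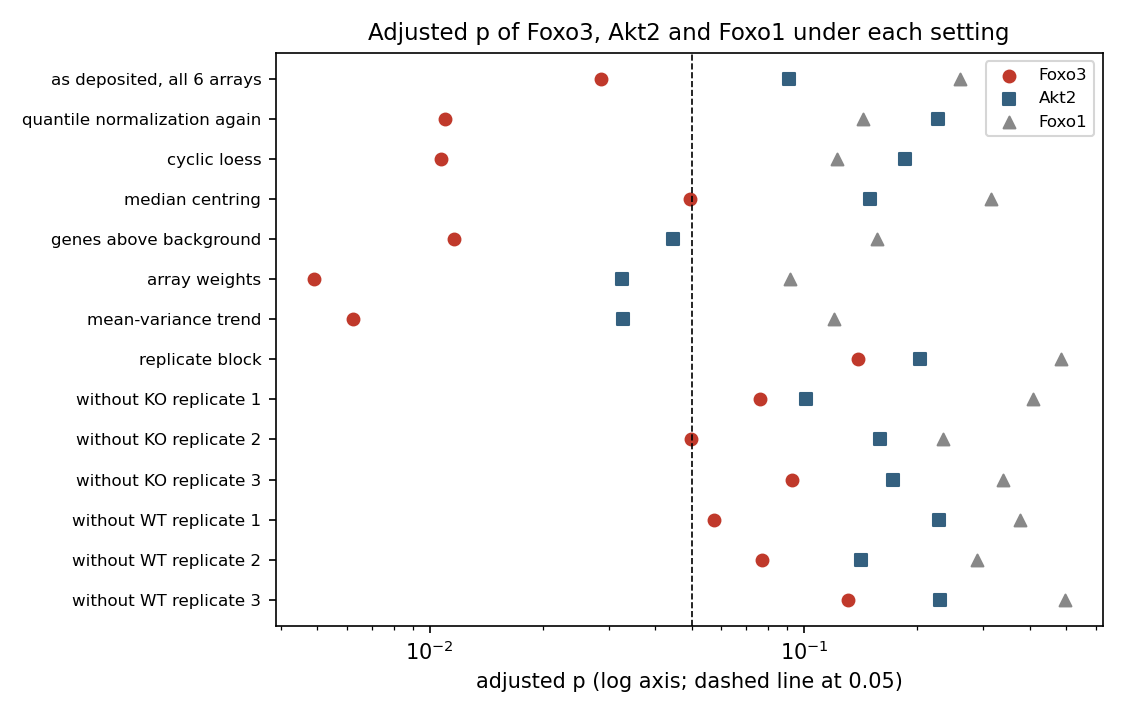
Adjusted p (x axis, log scale) of Foxo3 (red circles), Akt2 (blue squares) and Foxo1 (grey triangles) with all arrays as deposited and under 13 other settings (y axis). The dashed line marks 0.05. Foxo3 lies left of the line with all arrays and under the scalings, and right of it in 5 of the 6 fits without 1 array.

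The 5 genes above background whose pattern over the 6 arrays was most like that of Foxo3 were Alas1, Abcd2, Emp1, Zfp217 and Asxl2, with Pearson r of 0.9969 to 0.9976. Alas1 encodes the first enzyme of haem synthesis and Abcd2 a peroxisomal transporter of fatty acids. Each of the 5 was higher on every KO array, with differences of 0.18 (Emp1) to 0.38 (Abcd2). These r values describe 6 points that share the split by genotype.

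The surrounding pathway was described by 7 lists of 116 genes in all, which leave out the 8 genes. Of these, 109 were measured, 100 of them above background. Of the 109, 12 rose and 4 fell, and the remaining genes did not pass the test, 14.7% called against 7.31% of all genes and 10.7% of genes above background. Their median difference was 0.028, and that of all genes 0.005. The lists were chosen with earlier results of these data known, so their share of calls and median are descriptions and test no enrichment. The other listed genes were not analysed here.

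**Figure D4:**
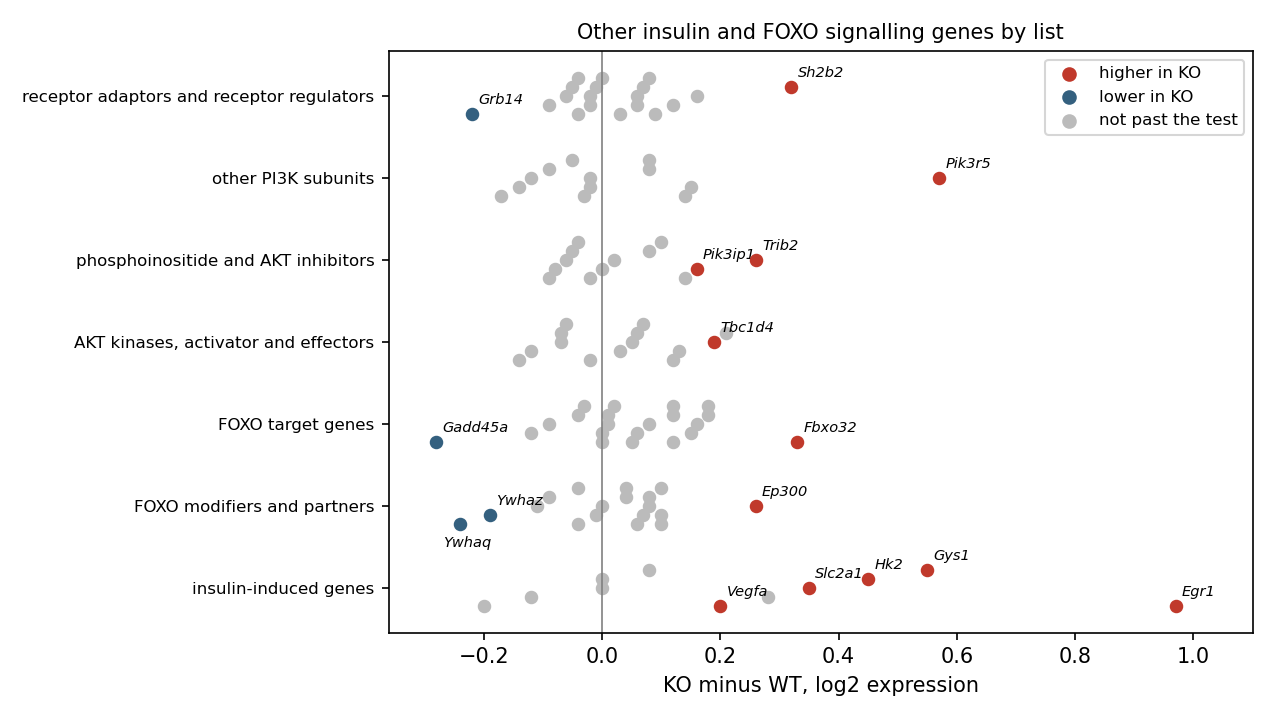
KO minus WT on the log2 scale (x axis) of 109 other genes of insulin and FOXO signalling in 7 lists (y axis), each point 1 gene, spread vertically for legibility. Red points rose and blue points fell in KO at an adjusted p under 0.05 (limma), and grey points did not pass. Most points lie near 0, and Egr1, Pik3r5 and Gys1 reach 0.55 to 0.97.

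Among receptor adaptors and regulators, 1 of 19 genes with a probe set rose and 1 fell, 17 missing the threshold, with a median of 0.001. Sh2b2, which encodes the receptor-binding adaptor APS, had 9.17, 9.09 and 9.32 in KO, against 8.88, 8.85 and 8.88 in WT, a rise of 0.32 (adjusted p = 0.0247, limma). Grb14, an adaptor that inhibits the insulin receptor, had 9.27, 9.23 and 9.29 in KO, against 9.50, 9.42 and 9.54 in WT, a fall of 0.22 (adjusted p = 0.0278). Neither pair of groups overlapped. The Sh2b2 call was lost without KO replicate 1 or any WT replicate (adjusted p = 0.0782 to 0.113) and that of Grb14 in 5 of the 6 fits without 1 array, all but that without WT replicate 2 (adjusted p = 0.0761 to 0.120). The phosphatase gene Ptprf differed by 0.12 (adjusted p = 0.0692) and the fat-specific adaptor gene of rodents, Irs3, by -0.09 (adjusted p = 0.559). Igf1r, the receptor for insulin-like growth factor, differed by -0.04 (adjusted p = 0.563).

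Of 13 other PI3K subunits, Pik3r5 rose, none fell and 12 did not pass, with a median of -0.022. Pik3r5 encodes p101, the regulatory partner of the PI3K gamma catalytic subunit, which acts downstream of G protein-coupled receptors. It had 10.06, 9.94 and 9.93 in KO, against 9.42, 9.38 and 9.42 in WT. The rise of 0.57 (SE 0.04, adjusted p = 0.00241, limma) passed in all 6 fits without 1 array. Pik3cg, the gene of its catalytic partner, lay below background, with 6.45, 6.34 and 6.28 in KO, against 6.18, 6.34 and 6.10 in WT. The catalytic subunit genes that pair with Pik3r1 differed by 0.08 (Pik3ca, adjusted p = 0.236), -0.09 (Pik3cb, adjusted p = 0.395) and -0.12 (Pik3cd, adjusted p = 0.305). The regulatory subunit genes Pik3r2 and Pik3r3 differed by 0.14 (adjusted p = 0.1) and -0.17 (adjusted p = 0.110), and Pik3c2a, of a second PI3K class, by -0.14 (adjusted p = 0.186).

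Of 13 genes listed as inhibitors of PI3K or AKT, 2 rose, none fell and 11 did not pass, with a median of 0.002. One of the 2, Trib2, is listed by family, and restraint of FOXO is what AKT does too. Its rise is therefore not read as that of an AKT opponent. Trib2, a pseudokinase gene reported to restrain FOXO3 in human melanoma cells, had 9.68, 9.68 and 9.64 in KO, against 9.36, 9.44 and 9.41 in WT, a rise of 0.26 (adjusted p = 0.0101, limma) that was lost without WT replicate 3 (adjusted p = 0.0620). Pik3ip1, a membrane inhibitor of PI3K, rose by 0.16 (adjusted p = 0.0437), with 9.95, 9.86 and 9.91 in KO, against 9.75 on each WT array. That call was lost without any 1 of the 6 arrays (adjusted p = 0.0504 to 0.163) and with median centring (adjusted p = 0.0603). The phosphatase genes Inpp5d and Ppp2cb differed by -0.08 (adjusted p = 0.407) and -0.06 (adjusted p = 0.429).

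Among 14 genes of AKT activation and output, 1 rose, none fell and 13 did not pass, with a median of 0.042. Tbc1d4 encodes AS160, the AKT substrate that holds glucose transporter vesicles inside the cell until it is phosphorylated. It had 8.49, 8.55 and 8.49 in KO, against 8.33, 8.31 and 8.31 in WT, a rise of 0.19 (adjusted p = 0.0198, limma) that passed without KO replicate 1 and missed the threshold in the 5 fits that left out another array (adjusted p = 0.0501 to 0.1). Pdpk1, the kinase that activates AKT, differed by -0.02 (adjusted p = 0.822) and Slc2a4, the insulin-responsive glucose transporter GLUT4, by 0.13 (adjusted p = 0.285). Mdm2, an AKT substrate gene, differed by 0.21 (adjusted p = 0.110), Pde3b by -0.14 (adjusted p = 0.123) and the glycogen synthase kinase gene Gsk3b by -0.12 (adjusted p = 0.192).

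Genes reported as FOXO targets moved in both directions. Of 21 measured, Fbxo32 rose, Gadd45a fell and 19 did not pass, with a median of 0.055 and 15 positive differences. Fbxo32, the muscle ubiquitin ligase atrogin-1, had 10.28, 10.37 and 10.37 in KO, against 10.04, 10.00 and 10.00 in WT. It rose by 0.33 (adjusted p = 0.00688, limma), which missed the threshold once WT replicate 3 was left out (adjusted p = 0.0537). Gadd45a, a stress and DNA repair gene, had 10.93, 10.93 and 11.02 in KO, against 11.26, 11.24 and 11.21 in WT. It fell by 0.28 (adjusted p = 0.0102), which just missed the threshold once WT replicate 1 or 3 was left out (adjusted p = 0.05 to 0.0582). Catalase, Cat, which removes hydrogen peroxide, differed by 0.18 (adjusted p = 0.0644), Bcl2l11, the cell death gene Bim, by 0.16 (adjusted p = 0.0675) and the repressor gene Bcl6 by 0.12 (adjusted p = 0.0738). These 3 passed as well, upward, after a further quantile normalization, after cyclic loess, without genes below background and with a mean-variance trend, where 4 targets rose and 1 fell, and with array weights, where 5 rose and 1 fell. Without WT replicate 3 no target passed. Cdkn1b, the cell cycle inhibitor p27, differed by -0.12 (adjusted p = 0.231). Fbxo32 had no promoter entry, and neither motif was in the window of Gadd45a. Of the 20 listed targets with a promoter entry, 7 held a match, among them Bcl2l11.

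Of 18 modifiers and partners of FOXO, 1 rose, 2 fell and 15 did not pass, with a median of 0.04. Ep300, an acetyltransferase that acts on FOXO, had 10.87, 11.04 and 10.90 in KO, against 10.73, 10.64 and 10.67 in WT, a rise of 0.26 (adjusted p = 0.0352, limma). It did not pass without any 1 of the 6 arrays (adjusted p = 0.0583 to 0.148). The 14-3-3 genes Ywhaq and Ywhaz, whose products hold phosphorylated FOXO in the cytoplasm, fell. Ywhaq had 9.41, 9.43 and 9.41 in KO, against 9.67, 9.58 and 9.73 in WT, a fall of 0.24 (adjusted p = 0.0216). Ywhaz had 12.77, 12.83 and 12.80 in KO, against 12.98, 12.97 and 13.02 in WT, a fall of 0.19 (adjusted p = 0.0240). Each of these calls held in 1 of the 6 fits without 1 array, that of Ywhaq without WT replicate 2 and that of Ywhaz without KO replicate 2 (adjusted p otherwise 0.0683 to 0.0927 and 0.0532 to 0.117). The 4 other 14-3-3 genes measured did not pass, with differences of 0.07 (Ywhab), -0.11 (Ywhae), 0.08 (Ywhag) and 0.08 (Ywhah). Ctnnb1, the beta-catenin gene, whose product FOXO can bind, differed by 0.10 (adjusted p = 0.121).

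Genes reported to be induced by insulin held the most calls of the 7 lists, and whether insulin signalling underlies these calls was not tested. Of 11 measured, 5 rose, none fell and 6 did not pass, with a median of 0.205. Gys1, muscle-type glycogen synthase, had 10.06, 9.97 and 10.04 in KO, against 9.48, 9.47 and 9.46 in WT, a rise of 0.55 (SE 0.04, adjusted p = 0.00139, limma). Slc2a1, the basal glucose transporter GLUT1, had 12.56, 12.50 and 12.54 in KO, against 12.16, 12.22 and 12.17 in WT, a rise of 0.35 (adjusted p = 0.00445). Hk2, the hexokinase that traps glucose in the cell, rose by 0.45 (adjusted p = 0.0112), and the angiogenic growth factor gene Vegfa by 0.20 (adjusted p = 0.0130). Egr1, an immediate early gene that many growth signals induce, had 9.70, 9.65 and 9.68 in KO, against 8.69, 8.69 and 8.73 in WT, a rise of 0.97 (adjusted p = 0.000216). The calls of Gys1, Slc2a1 and Egr1 were kept in all 6 fits without 1 array, whereas that of Hk2 was lost without KO replicate 1, WT replicate 1 or WT replicate 3 (adjusted p = 0.0519 to 0.0711) and that of Vegfa without KO replicate 3 or WT replicate 3 (adjusted p = 0.0518 to 0.0692). The lipid synthesis members of the list did not pass: Srebf1 differed by 0.08 (adjusted p = 0.419), Fasn by -0.12 (adjusted p = 0.182) and Scd1 by less than 0.01 (adjusted p = 1.00). Odc1, the first enzyme of polyamine synthesis, differed by -0.20 (adjusted p = 0.371). The immediate early gene Fos differed by 0.28 (adjusted p = 0.051, limma) and passed after each of the other scalings. Among the fits without 1 array, Fos passed only in that without WT replicate 2. Myc differed by less than 0.01 (adjusted p = 0.999).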

How the data were processed

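The deposited table holds log2 expression values of 35556 probe sets on 6 arrays, made by the authors with RMA, according to the submitters' processing notes. The notes list Affymetrix Expression Console and Partek as well, with no version. RMA scales the arrays to each other, which hides any change common to all transcripts. The array medians lay between 7.19 and 7.23. The platform annotation gave 21789 probe sets exactly 1 gene symbol, updated through gene identifiers of GRCm38.p6 (21698 matched). Groups and replicate numbers come from the sample titles, and no batch is given.

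KO was compared with WT by lmFit and eBayes of limma 3.58.1 in R 4.3.3, two-sided, without covariates or a filter on dim genes. The fit was run on simulated data with independent noise. That check required recovery only of differences larger than those of the 8 genes, so it does not cover differences of their size. Exact permutation tests of single values used SciPy 1.17.1. The 8 genes and the gene lists were chosen with earlier results of these data known. Named from each list are the genes that passed and those with the 2 smallest p in each direction, and some others chosen after their values were seen. Alternatives were other scalings, a background filter, array weights, a variance trend, other probe sets, a replicate block and leaving out each array.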

Additional observations from a re-analysis of the deposited data

How the results depend on the processing

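The differences of Foxo3, Foxo1, Pik3r1 and Akt2 kept their sign under every alternative run, and among the 8 genes no called difference changed sign. Foxo3 was 0.167 to 0.197 without 1 array, 0.228 after quantile normalization again and 0.185 with median centring (adjusted p = 0.0494). The labels state no pairing of samples by replicate number. Deviations of same-numbered arrays from their genotype's mean correlated at -0.30, -0.26 and -0.02 across genes. Those of differently numbered arrays correlated at -0.12 to 0.33. With 3 arrays a side, centred on their own mean, these values cannot decide whether the numbers pair the samples. With the replicate block, Foxo3 was 0.18 (adjusted p = 0.139), 0 of the 8 genes passed, and 52 genes of all passed. Akt2 passed at -0.144 without genes below background and with a mean-variance trend, and at -0.13 with array weights, a setting in which WT replicate 3 weighed 7.41 and no other array more than 1.19. Under each of these 3 settings 2 of the 8 genes passed. With the trend 2196 and with the weights 3418 of all 19938 genes passed, against 1457, and with the background filter 2192 of the 13090 genes tested, or 16.7%. At an unadjusted p under 0.05 in limma, Akt2 and Foxo3 passed under every setting run, the replicate block included, and 2 to 4 of the 8 genes passed in all. That bar is low: with all arrays as deposited, Foxo1, just over it (unadjusted p = 0.0563, limma), ranked 4316 of 19938 genes by p. Akt2 ranked 2154. For the other settings the share of all genes under that bar was not counted. Those settings reuse the same arrays, so the counts of 2 to 4 are descriptions and add no independent evidence. Of the fits without 1 array, that without KO replicate 2 called 1 of the 8 genes, Foxo3, and the others 0. Of all genes 824, 828 and 612 passed without KO replicates 1, 2 and 3, and 495, 932 and 189 without WT replicates 1, 2 and 3. After quantile normalization again 862 genes were higher and 639 lower in KO, and after cyclic loess 859 and 667, against 666 and 791 as deposited. Akt1, Irs2 and Insr, none of them called, had differences near 0 whose sign depended on the setting. Irs1, not called either, was negative under every setting, at -0.088 to -0.033. Only its second probe set, which lay below background, had a positive difference (0.017). Called FOXO targets numbered 0 to 6 over the alternatives, insulin-induced genes 2 to 6 and other PI3K subunits 1 to 3. Called FOXO modifiers numbered 0 to 5, receptor regulators and genes listed as AKT inhibitors 0 to 3 each, and AKT effectors 0 to 2. With the block 5 lists had none, and Slc2a1 missed the threshold (adjusted p = 0.059), while Egr1 (0.0261), Gys1 (0.043) and Pik3r5 (0.043) passed. The number of arrays limits what can be seen at differences this small.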
